A study of Mus musculus with 12 samples.

Results

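Apoe, Clu and Abca1 are 3 genes of the lipoprotein system with which astrocytes handle lipid in the brain. They were taken by symbol, as every probe that the annotation of an Illumina mouse bead array gives to one of them. This found 3 probes, 1 for each gene, among the 46621 probes of the array that were used. The probes of Apoe and Clu passed the filter on dim probes that left 20965 probes for testing, and the probe of Abca1 did not.

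RNA was measured on 12 arrays, 4 for each of 3 groups, all from CD1 mouse cells taken at postnatal day 1 from the subventricular zone and grown as neurospheres. The BMP4 group was differentiated with recombinant human BMP4 at 20 ng/ml and harvested at day 7. The LIF_NOG group received LIF at 20 ng/ml and noggin, an antagonist of BMPs, at 250 ng/ml over the same 7 days. In both, the cells carried a retrovirus with GFP under the GFAP promoter, were sorted for GFP before differentiation, and had EGF at 1 ng/ml and cytokines renewed on day 3 at a reduced concentration. The Neurosphere group was kept as neurospheres in EGF at 20 ng/ml, carried a control GFP retrovirus and was sorted for GFP. Against Neurosphere, virus, EGF dose and culture form changed with the cytokine, so their parts cannot be told apart. Whether the samples within a group are separate cultures or animals is not stated, so the p-values rest on a spread between samples that may be technical only.

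Apolipoprotein E, made from Apoe, is the main lipid carrier that astrocytes secrete in the brain, and clusterin, made from Clu and also called apolipoprotein J, is a second astrocyte apolipoprotein that acts as an extracellular chaperone. The membrane transporter ABCA1 hands cholesterol and phospholipid to these lipid-poor proteins, and the particle is then taken up by neurons and glia through lipoprotein receptors. Oxysterols activate the liver X receptors (LXR), and Apoe and Abca1 are both known LXR target genes.

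All coordinates are on GRCm38.p6. Apoe lies on chromosome 7 (19696244 to 19701310), Clu on chromosome 14 (65968483 to 65981548) and Abca1 on chromosome 4 (53030789 to 53159988). The annotation ties the probes to the transcripts NM_009696 for Apoe, NM_013492 for Clu and NM_013454 for Abca1. The 250 bases before the most upstream of 3 listed starts of Apoe (chr7:19699189-19699438, minus strand) are shown, as RefSeq gives them. So are those before the listed start of Abca1 (chr4:53159896-53160145, minus strand). They are shown because both genes are known LXR targets and only Apoe was measured well above background here. The Apoe bases lie inside the gene span given above, and those of Abca1 overlap the end of its span. Neither stretch is therefore wholly outside the gene as listed. Capitals mark the single motif match, an E-box.
Apoe: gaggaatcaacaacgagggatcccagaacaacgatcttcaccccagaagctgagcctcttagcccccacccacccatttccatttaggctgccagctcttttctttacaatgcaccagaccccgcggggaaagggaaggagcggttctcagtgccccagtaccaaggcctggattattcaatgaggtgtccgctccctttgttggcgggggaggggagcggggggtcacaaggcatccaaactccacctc
Abca1: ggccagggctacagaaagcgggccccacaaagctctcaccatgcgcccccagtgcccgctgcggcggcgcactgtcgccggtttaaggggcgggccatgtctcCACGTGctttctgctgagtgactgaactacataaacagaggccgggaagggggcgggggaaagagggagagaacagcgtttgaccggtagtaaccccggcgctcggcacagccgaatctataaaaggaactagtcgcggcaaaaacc

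Motifs were searched on both strands over 300 bases, from 250 before each start to 50 after it. The E-box CACGTG was found once in the Abca1 window, from base 104, and 7.15% of 32851 promoter windows of this length hold it. No match was found in any of the 3 Apoe windows, nor a further one in the Abca1 window, for 5 other motifs. These were the STAT motif TTCNNNGAA (in 8.3% of windows), the AP-1 motif TGANTCA (7.81%), the Smad GC element GGCGCC (11.9%), the heat shock element GAANNTTC (7.86%) and the LXR-type direct repeat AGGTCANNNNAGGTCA (0.0152%). That says only that these exact letters are not in these windows. Looser forms of the motifs, the LXR-type repeat among them, were not searched and may be present.

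In the deposited raw table the column of Neurosphere 1 stands in another row order than the other 11 (median rank correlation 0.0104 with them). It was left out of the main fit, and its values, after rows were matched, are given beside the others. Between 38.7% and 42.0% of probes were detected on each of the 11 arrays (detection p under 0.05, computed from each array's own negative controls), and the median raw signal lay between 69.0 and 80.9. On the second principal component LIF_NOG 2 scored 5.31, while LIF_NOG 1, 3 and 4 scored 38.0 to 58.2. In the authors' processed table Neurosphere 2 to 4 and LIF_NOG 1 to 3 follow the raw table by probe ID (rank correlation 1) and form one set. LIF_NOG 4 and all BMP4 arrays do not follow it (0.00817 to 0.0156), nor does Neurosphere 1 (0.476), and these form another set. Each comparison was therefore repeated with this row-order set as a term of the fit (a set block) and within 1 set. For LIF_NOG against Neurosphere both repeats amount to leaving LIF_NOG 4 out. The set block there gives the same result as the alternative without that array, though the alternatives counted below list them separately. No Neurosphere array of the main fit shares a set with the BMP4 arrays. Both repeats of BMP4 against LIF_NOG therefore rest on LIF_NOG 4 as the only LIF_NOG array in that set. For BMP4 against Neurosphere the set block is estimated through LIF_NOG 4 alone, and the comparison within 1 set has the realigned Neurosphere 1 as its only Neurosphere array. A lone array is assumed to vary like the other groups, so a call lost in these repeats does not show that the set made the difference.

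Apoe was high in both treated groups and low in neurospheres. Its normalized level, in log2 intensity, was 14.30, 14.45, 14.34 and 14.26 on BMP4 arrays 1 to 4. It was 13.45, 12.19, 12.73 and 13.92 on LIF_NOG arrays 1 to 4, and 7.46, 8.00 and 8.67 on Neurosphere arrays 2 to 4. No treated array came near a Neurosphere array, and the BMP4 arrays all lay above the LIF_NOG arrays. Neurosphere 1, with its rows matched, had a level of 7.37 in the fit of 12 arrays, just below the others of its group. The raw signal was between 16383 and 20974 in BMP4, between 5060 and 15671 in LIF_NOG and between 214 and 391 on Neurosphere arrays 2 to 4, where it was still detected on all 3. The 4 BMP4 arrays stood close together, with the highest level 1.14 times the lowest, while the highest LIF_NOG level was 3.32 times the lowest.

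Apoe rose 78.7-fold in BMP4 against Neurosphere (log2 fold change 6.30 ± 0.36, SE, adjusted p = 5.24e-08, n = 4 and 3). It rose 32.7-fold in LIF_NOG against Neurosphere (5.03 ± 0.36, adjusted p = 4.79e-06, n = 4 and 3). By size these were the 13th and the 6th of the log2 fold changes of 11034 genes, each gene by its brightest probe, in those comparisons. The groups differ by far more than the arrays within them, where the SD was 0.0834 in BMP4, 0.766 in LIF_NOG and 0.606 in Neurosphere. Both tested members passed in both comparisons, where 21% of probes tested were called higher in BMP4 against Neurosphere and 10.5% in LIF_NOG against Neurosphere (limma, adjusted p under 0.05). All treated arrays lay above all Neurosphere arrays for both members, as they did for 23.2% of probes tested in BMP4 and 13.7% in LIF_NOG. Both comparisons use the same 3 Neurosphere arrays. Of the calls in LIF_NOG against Neurosphere 47.1% were higher, and 64.9% with arrays scaled to a common median, under which Apoe and Clu stayed higher. These are levels in bulk RNA, in which fewer cells of a type and less RNA per cell cannot be told apart.

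Between the treatments Apoe was 2.4-fold higher in BMP4 than in LIF_NOG (log2 1.27 ± 0.33, 95% interval 0.55 to 1.98, adjusted p = 0.00892, n = 4 each), and 17.3% of probes tested were called higher in that comparison. All 4 BMP4 levels exceeded all 4 LIF_NOG levels, as did 16% of the probes tested. The difference was 0.42 ± 0.44 (adjusted p = 0.584) with a row-order set block. It was 0.42 ± 0.19 (adjusted p = 0.173) within the set that holds all BMP4 arrays. Both values compare the BMP4 arrays with LIF_NOG 4 alone, the brightest LIF_NOG array for Apoe, so array and set cannot be told apart here.

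Clu had levels of 12.22, 12.57, 12.74 and 13.03 on BMP4 arrays 1 to 4. Its levels were 12.49, 12.25, 10.85 and 12.11 on LIF_NOG arrays 1 to 4, and 6.27, 6.53 and 7.22 on Neurosphere arrays 2 to 4. The treated arrays again lay far above the Neurosphere arrays, but those of BMP4 and LIF_NOG overlapped, with LIF_NOG 3 lowest among the treated. Neurosphere 1 had 6.40 after matching, within the range of its group. The raw signal was 4154 to 8867 in BMP4, 1863 to 5422 in LIF_NOG and 122 to 172 on Neurosphere arrays 2 to 4. The probe was detected on all 11 arrays.

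Clu rose 62.3-fold in BMP4 against Neurosphere (log2 5.96 ± 0.35, adjusted p = 7.18e-08) and 38-fold in LIF_NOG against Neurosphere (5.25 ± 0.35, adjusted p = 3.40e-06). Among 11034 genes these were the 18th and the 5th largest log2 fold changes. Between the treatments Clu differed by 0.71 ± 0.33 on the log2 scale, BMP4 over LIF_NOG, with a 95% interval of 0.01 to 1.42 and an adjusted p of 0.11, so the difference did not pass. It was 0.36 without LIF_NOG 3 and 0.90 without LIF_NOG 1. Whether the BMP4 to LIF_NOG difference of Apoe differs from that of Clu was not tested.

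**Figure D1:**
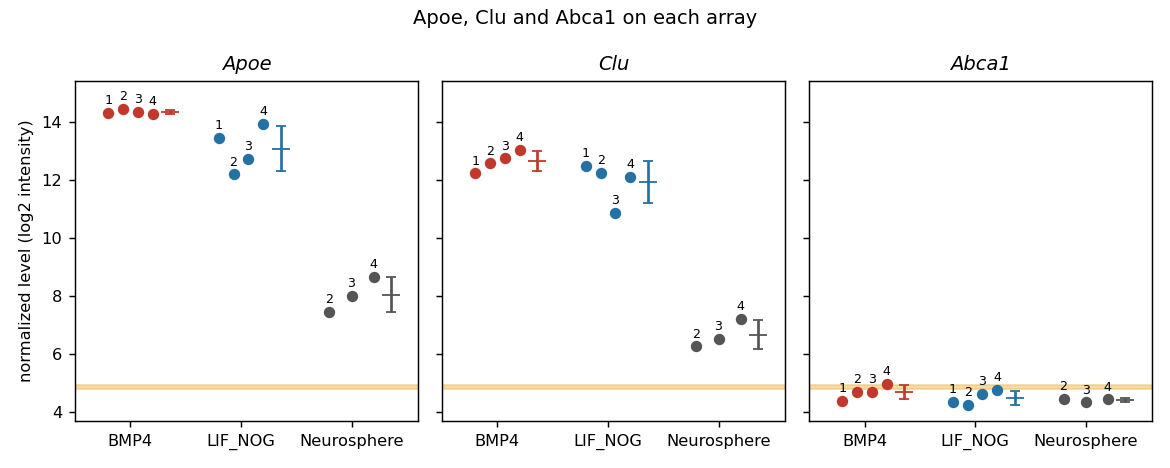
Normalized level (log2 intensity) of Apoe, Clu and Abca1 on each array of the BMP4, LIF_NOG and Neurosphere groups, with array numbers above the points and the mean and SD beside them. The shaded band spans the lowest levels of detected probes on the 11 arrays (4.80 to 4.92); Apoe and Clu lie far above it in both treated groups, and Abca1 lies at or under it on every array but 1.

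**Figure D2:**
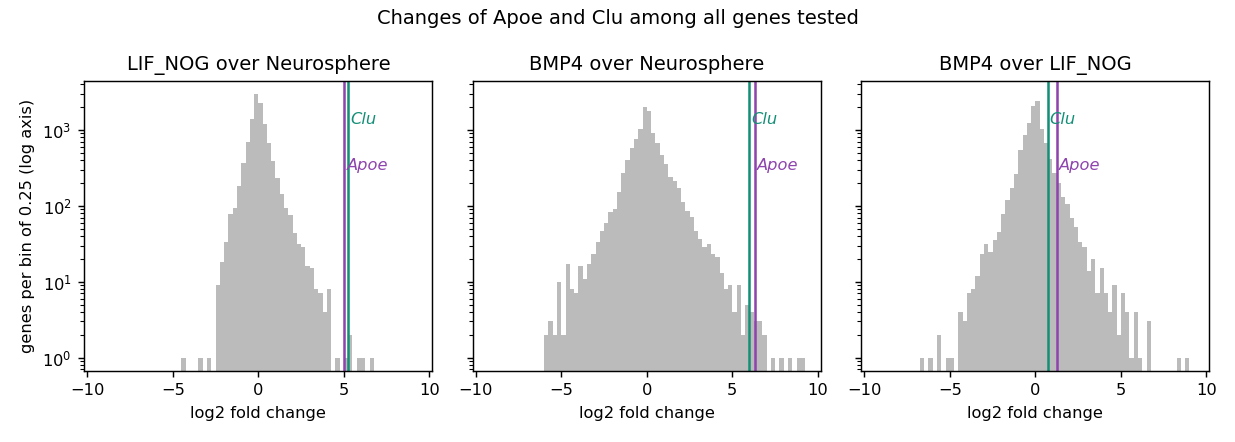
Histogram of log2 fold changes of 11034 genes (brightest probe of each, gene counts on a log axis) in LIF_NOG over Neurosphere, BMP4 over Neurosphere and BMP4 over LIF_NOG. Lines mark Apoe (5.03, 6.30 and 1.27) and Clu (5.25, 5.96 and 0.71), which sit at the right edge against Neurosphere and inside the bulk between the treatments.

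Abca1, the exporter that loads both carriers, was not well above background in any group. Its levels were 4.4, 4.69, 4.71 and 4.98 on BMP4 arrays 1 to 4, against a detection floor of 4.80 to 4.92. They were 4.36, 4.25, 4.64 and 4.77 on LIF_NOG arrays 1 to 4, and 4.46, 4.34 and 4.44 on Neurosphere arrays 2 to 4. The groups overlapped, and the probe had a detection p-value under 0.05 on 1 of the 11 arrays, BMP4 4 (0.0147), with LIF_NOG 4 next (0.0603). The raw signal ran from 58.9 to 85.0 over all 11 arrays, and Neurosphere 1 had 68.8. Without the filter on dim probes, the differences were 0.28 ± 0.15 in BMP4 over Neurosphere (adjusted p = 0.276), 0.09 ± 0.15 in LIF_NOG over Neurosphere (adjusted p = 0.854) and 0.19 ± 0.14 in BMP4 over LIF_NOG (adjusted p = 0.51), over 46621 probes. With 1 probe near background these values bound neither the presence nor a change of Abca1 RNA.

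Markers of astrocytes moved in the same direction as Apoe and Clu. Of 16 astrocyte markers tested, 14 rose and 0 fell in BMP4 against Neurosphere, 9 rose and 0 fell in LIF_NOG against Neurosphere, and 10 rose and 0 fell in BMP4 against LIF_NOG. Over all 11034 genes 24.3% were called higher and 24.7% lower in BMP4 against Neurosphere. These shares were 12.7% and 12.4% in LIF_NOG against Neurosphere, and 19.7% and 21.7% in BMP4 against LIF_NOG. All marker counts are to be read beside these shares. Their summed background-corrected intensity ran from 92250 to 135432 in BMP4, from 38696 to 59803 in LIF_NOG and from 25918 to 27907 in Neurosphere. Gfap, the astrocyte intermediate filament gene and the source of the reporter's promoter, was at 13.86 ± 0.671 in BMP4 and 10.97 ± 1.57 in LIF_NOG (SD, n = 4 each), against 4.86 ± 0.369 in Neurosphere, where 1 of 3 arrays detected it. The water channel gene Aqp4 was at 14.96 ± 0.114 in BMP4, 12.42 ± 0.505 in LIF_NOG and 8.56 ± 0.143 in Neurosphere. Like Apoe, Gfap lost its call between the treatments with a row-order set block (adjusted p = 0.246) and within 1 set (0.0833), both against LIF_NOG 4 alone.

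Microglia and macrophages are another known source of Apoe, and none of their 15 markers on the array (of 18 listed), among them Aif1, Cx3cr1, Tyrobp, Trem2 and C1qa, was detected on any array. Their summed intensity was 82 to 86 in BMP4, 75 to 85 in LIF_NOG and 77 to 86 in Neurosphere. Of 8 markers of the choroid plexus, where Clu is also known to be expressed, 4 were detected on no array (Ttr, Kl, Clic6 and Kcne2). Of the 8, 3 were detected on all BMP4 arrays, 1 on all LIF_NOG arrays and 0 on all Neurosphere arrays. Of 4 tested, 1 (Folr1) rose in BMP4 against both other groups, and 0 passed in LIF_NOG against Neurosphere. The 8 together gave sums of 140 to 213 in BMP4, 86 to 158 in LIF_NOG and 65 to 143 in Neurosphere. Ependymal markers also moved with the treated groups: of 6 tested, 3 rose in BMP4 and 6 rose in LIF_NOG against Neurosphere, with sums of 508 to 575 in BMP4, 569 to 1799 in LIF_NOG and 236 to 247 in Neurosphere.

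Oligodendrocyte markers moved with LIF_NOG, where 6 of 8 tested rose against Neurosphere, and against LIF_NOG 6 fell in BMP4. Their sums were 195 to 319 in BMP4, 2973 to 7747 in LIF_NOG and 390 to 612 in Neurosphere. Of 10 neuronal markers tested, 3 rose and 1 fell in BMP4 and 4 rose in LIF_NOG against Neurosphere, with sums of 759 to 1371 in BMP4, 1141 to 2734 in LIF_NOG and 611 to 802 in Neurosphere. Of 8 neural stem cell markers, 2 rose and 2 fell in BMP4 and 2 rose in LIF_NOG against Neurosphere, with sums of 19465 to 25144 in BMP4, 28652 to 37937 in LIF_NOG and 17320 to 18355 in Neurosphere. The stem cell counts in BMP4 against Neurosphere are near the shares of all genes, 24.3% higher and 24.7% lower. In BMP4 against LIF_NOG 1 of the 8 stem cell markers rose and 5 fell, and 1 of the 10 neuronal markers rose and 5 fell. Endothelial sums stayed at or under 546 on every array. Pericyte and fibroblast sums were 1060 to 1225 in BMP4, 1231 to 5471 in LIF_NOG and 6365 to 9002 in Neurosphere. Of 10 listed there, 4 were tested. Acta2 fell in BMP4 and in LIF_NOG against Neurosphere, and Rgs5 rose in BMP4, with a median of 0.09 in both comparisons. Only 1 gene of this list was detected on all Neurosphere arrays, so its sums may rest on few genes. The part of these cell types in the changes of Apoe and Clu was not tested.

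The genes of the pathway were read from lists ordered by role. In the comparisons of 11034 genes, 24.3% were called higher and 24.7% lower in BMP4 against Neurosphere, 12.7% higher and 12.4% lower in LIF_NOG against Neurosphere, and 19.7% higher and 21.7% lower in BMP4 against LIF_NOG. The median log2 fold change over all genes was -0.01 in BMP4 against Neurosphere, -0.03 in LIF_NOG against Neurosphere and -0.0022 in BMP4 against LIF_NOG. The median of each list, given in parentheses, is to be read beside these.

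Genes of the lipoprotein particle itself that passed were mostly higher, but the list holds Apoe and Clu, which were chosen beforehand. Apart from them, Apoc1, Lcat and Mttp rose in BMP4 and only Apoc1 in LIF_NOG, against Neurosphere. Of 12 tested, from 22 on the array, 5 rose and 0 fell in BMP4 against Neurosphere (median 0.29), namely Apoe, Clu, Apoc1, Lcat and Mttp. In LIF_NOG against Neurosphere 3 rose (Apoe, Clu and Apoc1) and 1 fell (Lpl), with a median of 0.26, or 0.21 with genes undetected in a whole group set to their bound. In BMP4 against LIF_NOG 5 rose (median 0.47), of which 3 passed with a row-order set block and 3 within 1 set.

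Apoc1, a small apolipoprotein encoded next to Apoe, had levels of 8.33, 7.99, 8.43 and 8.45 in BMP4 and 7.38, 6.06, 7.19 and 7.41 in LIF_NOG, and was detected on no Neurosphere array of 2 to 4. Against Neurosphere it rose at least 10.6-fold in BMP4 (adjusted p = 3.23e-07) and at least 4.3-fold in LIF_NOG (adjusted p = 8.82e-05). A bound of this kind takes the lowest level of detected probes for an array on which the gene was dimmer. BMP4 over LIF_NOG was 1.29 ± 0.25 on the log2 scale (adjusted p = 0.00139), with an adjusted p of 0.134 with a row-order set block.

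Lcat, which esterifies cholesterol on the particle, was at 7.75, 8.20, 8.51 and 8.42 in BMP4, at 5.32, 5.44, 5.35 and 5.01 in LIF_NOG, and at 5.01, 4.97 and 5.12 on Neurosphere arrays 2 to 4. All 4 BMP4 arrays lay above every other array, and the Neurosphere levels lay just above the detection floor of 4.80 to 4.92. Lcat rose 9.12-fold in BMP4 against Neurosphere (adjusted p = 4.54e-08) and 7.68-fold in BMP4 against LIF_NOG (adjusted p = 5.86e-08). In LIF_NOG against Neurosphere its log2 difference was 0.25 ± 0.18 (adjusted p = 0.361). Lpl, the lipase that hydrolyses particle triglyceride, was 3.47-fold higher in BMP4 than in LIF_NOG (adjusted p = 0.00447). It fell by 1.41 on the log2 scale in LIF_NOG against Neurosphere (adjusted p = 0.0408), a call lost under 16 of 24 alternative settings (adjusted p up to 0.148).

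**Figure D3:**
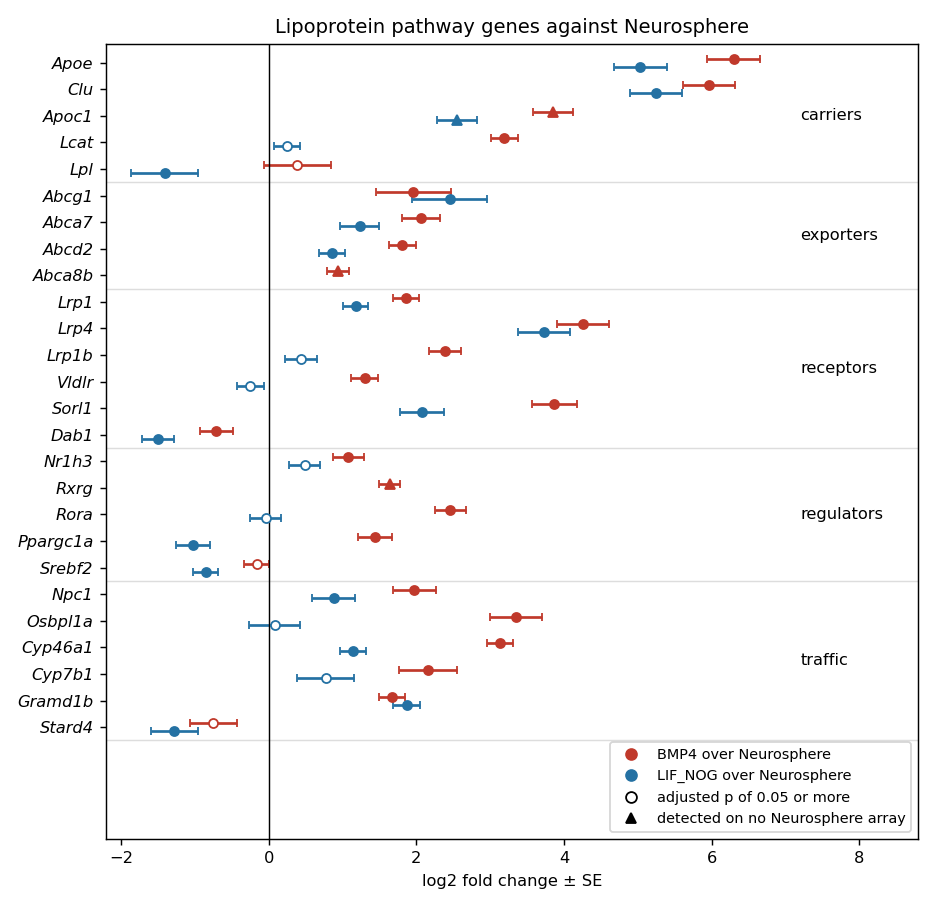
Log2 fold change with SE of 26 lipoprotein pathway genes in BMP4 and in LIF_NOG over Neurosphere, grouped by role; open symbols did not pass the adjusted p threshold of 0.05, and triangles mark fitted values of genes detected on no Neurosphere array, which are no measured folds. Apoe and Clu have the largest values of the genes drawn in both comparisons.

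Of the 16 listed ABC lipid exporters on the array, Abca1 included, 12 were tested, and Abca1 was not among the 12. In BMP4 against Neurosphere 6 rose and 0 fell (median 0.66, or 0.56 with bounds), and in LIF_NOG against Neurosphere 6 rose and 0 fell (0.30, or 0.26 with bounds), of which 3 passed within 1 row-order set. In BMP4 against LIF_NOG 5 rose and 1 fell (0.51, or 0.46 with bounds), with 3 higher with the set block and 1 within 1 set.

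Abcg1, which exports cholesterol to particles that already hold lipid, was at 6.98, 8.05, 6.94 and 6.59 in BMP4, at 8.01, 5.96, 7.86 and 8.68 in LIF_NOG, and at 4.89, 5.39 and 5.26 on Neurosphere arrays 2 to 4. The treated groups overlapped, and all their arrays lay above the Neurosphere arrays, of which 2 of 3 detected Abcg1, near the detection floor. Abcg1 rose 5.45-fold in LIF_NOG (adjusted p = 0.00533) and 3.9-fold in BMP4 (adjusted p = 0.00689) against Neurosphere, and the BMP4 call was lost in the authors' processed values (adjusted p = 0.0869) and with a row-order set block (0.718). BMP4 over LIF_NOG was -0.48 ± 0.47 (adjusted p = 0.478), and without LIF_NOG 2, the lowest LIF_NOG array for this gene, it was -1.04 ± 0.30 and passed as lower (adjusted p = 0.0142). Abca7, a phospholipid transporter related to Abca1, rose 4.17-fold in BMP4 (adjusted p = 3.33e-05) and 2.35-fold in LIF_NOG (adjusted p = 0.00582, and 0.0521 within 1 set) against Neurosphere. Abcd2, a peroxisomal transporter of fatty acids, rose 3.5-fold in BMP4 (adjusted p = 5.24e-06) and 1.82-fold in LIF_NOG (adjusted p = 0.00597) against Neurosphere. Abca8b was at least 1.4-fold higher in BMP4 than in Neurosphere (adjusted p = 0.000156) and undetected on every array of both other groups.

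Receptors and uptake genes were tested for 19 of the 23 on the array. In BMP4 against Neurosphere 12 rose and 3 fell (median 0.63), and in LIF_NOG against Neurosphere 7 rose and 2 fell (0.34). In LIF_NOG, 3 passed as higher within 1 row-order set and 4 without Neurosphere 2 or without Neurosphere 3. In BMP4 against LIF_NOG 9 rose and 2 fell (0.53), with 4 higher within 1 set.

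Lrp1, the endocytic receptor that takes up apolipoprotein E particles, was at 9.19 ± 0.297 in BMP4, 8.52 ± 0.236 in LIF_NOG and 7.33 ± 0.0454 in Neurosphere (SD, n = 4, 4 and 3). It rose 3.62-fold in BMP4 and 2.27-fold in LIF_NOG against Neurosphere (adjusted p = 2.83e-06 and 0.000733). Lrp4, a related receptor known as a co-receptor for agrin, had the largest rises of the list, 19.1-fold in BMP4 (adjusted p = 1.03e-06) and 13.3-fold in LIF_NOG (adjusted p = 3.86e-05). Sorl1, a sorting receptor that binds apolipoprotein E and the amyloid precursor protein, rose 14.6-fold in BMP4 and 4.23-fold in LIF_NOG (adjusted p = 6.40e-07 and 0.000649), from a Neurosphere level detected on 1 of 3 arrays. The LIF_NOG call of Sorl1 was lost in the authors' processed values (adjusted p = 0.0908).

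Other receptors moved with BMP4. Vldlr, a receptor for reelin and for apolipoprotein E, rose 2.47-fold in BMP4 against Neurosphere (adjusted p = 7.67e-05) and 2.93-fold in BMP4 against LIF_NOG (adjusted p = 1.70e-05), with LIF_NOG over Neurosphere at -0.25 ± 0.18 (adjusted p = 0.384). Lrp1b rose 5.24-fold in BMP4 against Neurosphere (adjusted p = 2.21e-06), where 2 of 3 arrays detected it, and 3.87-fold against LIF_NOG (adjusted p = 1.03e-05). Dab1, the adaptor through which Vldlr passes the reelin signal, fell by 1.5 in LIF_NOG (adjusted p = 0.000693) and by 0.71 in BMP4 (adjusted p = 0.0178) against Neurosphere on the log2 scale, and the second call was lost in 3 of 24 alternatives (adjusted p up to 0.325).

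Among sterol-sensing nuclear receptors and transcription factors, 12 of the 15 on the array were tested. In BMP4 against Neurosphere 7 rose and 0 fell (median 0.89, or 0.70 with bounds), in LIF_NOG against Neurosphere 2 rose and 2 fell (0.04, or 0.05 with bounds), and in BMP4 against LIF_NOG 7 rose and 1 fell (0.84, or 0.64 with bounds). Nr1h3, which encodes LXR alpha, was at 5.51, 5.30, 5.83 and 6.11 in BMP4, at 5.42, 4.85, 5.01 and 5.12 in LIF_NOG, and at 4.96, 4.48 and 4.38 on Neurosphere arrays 2 to 4. All these levels are low, and 1 of the 3 Neurosphere arrays detected the gene. It rose 2.12-fold in BMP4 against Neurosphere (adjusted p = 0.000966, and 0.0872 with a row-order set block), while LIF_NOG over Neurosphere was 0.49 ± 0.21 (adjusted p = 0.12). Its call in BMP4 against LIF_NOG (log2 0.59 ± 0.20, adjusted p = 0.0306) was lost in 12 of 24 alternatives, with an adjusted p of up to 0.268. Nr1h2, which encodes LXR beta, was not analysed here.

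Rxrg, a retinoid X receptor gene whose protein family partners LXR, was at least 2.11-fold higher in BMP4 than in Neurosphere (adjusted p = 1.33e-06) and undetected on the arrays of both other groups. The nuclear receptor gene Rora rose 5.5-fold in BMP4 against Neurosphere and 5.67-fold against LIF_NOG (adjusted p = 1.21e-06 and 8.27e-07). The coactivator gene Ppargc1a rose 2.72-fold in BMP4 against Neurosphere (adjusted p = 0.000247) and fell by 1.03 on the log2 scale in LIF_NOG against Neurosphere (adjusted p = 0.00848). Srebf2, the main transcription factor of sterol synthesis genes, fell by 0.85 in LIF_NOG (adjusted p = 0.00395) and stood at -0.16 ± 0.17 in BMP4 (adjusted p = 0.504), both over Neurosphere. Srebf1, itself an LXR target, did not pass the detection filter.

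Of 15 LXR target genes tested, from 20 on the array, 9 rose and 0 fell in BMP4 against Neurosphere (median 1.08), of which 5 passed with a row-order set block. In LIF_NOG against Neurosphere 4 rose and 1 fell (0.10). In BMP4 against LIF_NOG 10 rose and 0 fell (0.65). That last count was 6 with arrays scaled to a common median, 6 without the detection filter, 3 with the set block and 4 within 1 set. Apoe, Apoc1, Abcg1 and Abca7, already described, are on this list, and Abca1 and Mylip, which encodes a ubiquitin ligase, were too dim to test. Scd1, a fatty acid desaturase, rose 3.77-fold in BMP4 against Neurosphere (adjusted p = 0.000156), and Smpdl3a, a phosphodiesterase, rose 3.53-fold (adjusted p = 2.96e-05). Neither passed in LIF_NOG against Neurosphere, with -0.48 ± 0.29 for Scd1 (adjusted p = 0.275) and 0.07 ± 0.23 for Smpdl3a (adjusted p = 0.859). Without LIF_NOG 2, Scd1 was at -0.75 ± 0.23 and passed as lower (adjusted p = 0.0283).

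Genes of cholesterol traffic, storage and oxysterols were tested for 28 of the 32 on the array. In BMP4 against Neurosphere 17 rose and 2 fell (median 0.80), of which 8 stayed higher with a row-order set block. In LIF_NOG against Neurosphere 9 rose and 1 fell (0.32), with 5 higher without Neurosphere 3, and in BMP4 against LIF_NOG 9 rose and 3 fell (0.24), with 5 higher with the set block. Npc1, which exports cholesterol from lysosomes, was at 13.32 ± 0.454 in BMP4, 12.24 ± 0.559 in LIF_NOG and 11.36 ± 0.178 in Neurosphere (SD, n = 4, 4 and 3). It rose 3.91-fold in BMP4 (adjusted p = 0.000119) and 1.84-fold in LIF_NOG (adjusted p = 0.0471) against Neurosphere. The LIF_NOG call was lost in 18 of 24 alternatives (adjusted p up to 0.162). These values are of the brightest probe of Npc1. On the log2 scale, the mean of its probes gave 0.38 ± 0.17 in LIF_NOG over Neurosphere and 0.41 ± 0.16 in BMP4 over LIF_NOG. The brightest probe gave 0.88 and 1.08 there, so Npc1 changed less over its probes as a whole.

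Cyp46a1, the cholesterol 24-hydroxylase, rose 8.78-fold in BMP4 (adjusted p = 6.97e-08) and 2.21-fold in LIF_NOG (adjusted p = 0.00123, and 0.0751 in the authors' processed values) against Neurosphere, where 1 of 3 arrays detected it. Osbpl1a, of the oxysterol-binding protein family, rose 10.2-fold in BMP4 against Neurosphere (adjusted p = 6.60e-06), with 0.08 ± 0.35 in LIF_NOG (adjusted p = 0.902). Cyp7b1, which hydroxylates oxysterols, rose 4.46-fold in BMP4 (adjusted p = 0.000597). Gramd1b, a carrier of plasma membrane cholesterol, rose 3.65-fold in LIF_NOG and 3.17-fold in BMP4 (adjusted p = 3.86e-05 and 6.92e-06), and Hsd3b7, an enzyme of bile acid synthesis, rose 2.86-fold in LIF_NOG and 2.72-fold in BMP4 (adjusted p = 2.23e-05 and 2.11e-06). Stard4, a soluble sterol carrier, fell by 1.28 on the log2 scale in LIF_NOG (adjusted p = 0.014, lost in 2 of 24 alternatives).

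**Figure D4:**
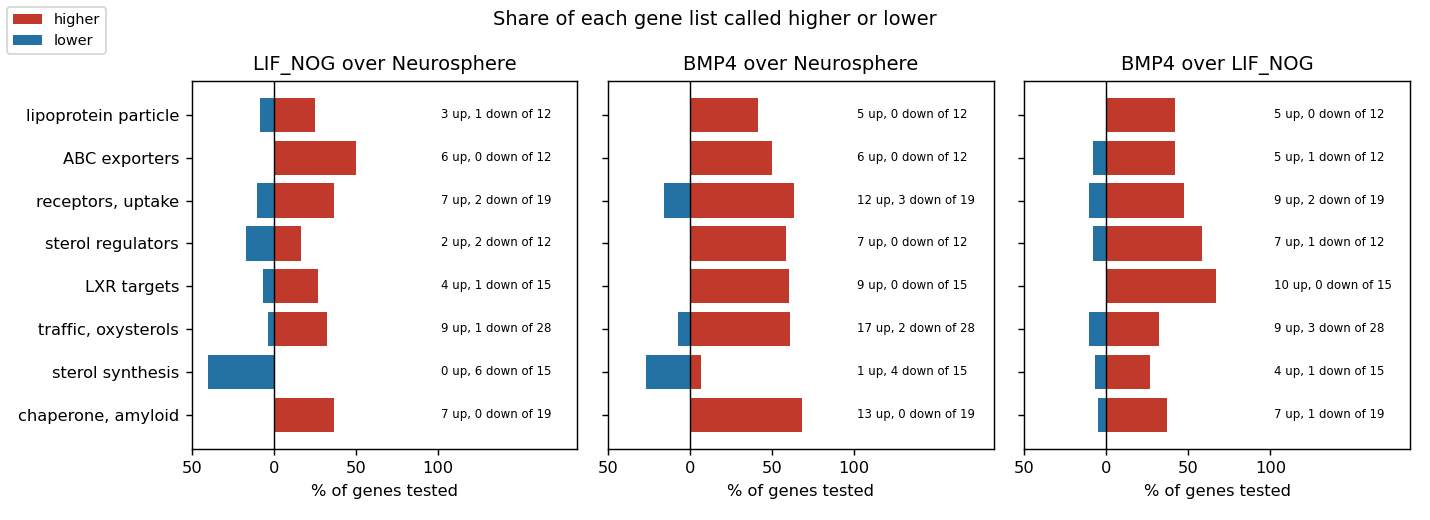
Percent of the tested genes of 8 pathway lists called higher (right of 0) or lower (left of 0) in LIF_NOG over Neurosphere, BMP4 over Neurosphere and BMP4 over LIF_NOG, with counts printed beside the bars. For all 11034 genes 12.7%, 24.3% and 19.7% were called higher; the sterol synthesis list is the one drawn with more genes lower than higher in both comparisons against Neurosphere, though in BMP4 its lower share is near the 24.7% of all genes.

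Of 15 sterol synthesis genes tested, 4 fell and 1 rose in BMP4 against Neurosphere (median -0.29), a lower share near the 24.7% of all genes. Of the same 15, 6 fell and 0 rose in LIF_NOG against Neurosphere (-0.71), and 4 rose and 1 fell in BMP4 against LIF_NOG (0.28). The 6 lower calls in LIF_NOG were unstable, at 1 with a row-order set block and 0 without Neurosphere 3, and the 4 in BMP4 were 0 with the set block, where the list's median turned to 0.56. Lss, the lanosterol synthase, fell by 1.36 in LIF_NOG (adjusted p = 0.0299, lost in 10 of 24 alternatives) and by 1.23 in BMP4 (adjusted p = 0.0252, lost in 8), on the log2 scale. With the mean of its probes Lss stood at -0.60 ± 0.24 in LIF_NOG and -0.61 ± 0.24 in BMP4, and neither passed. Fdps, which makes farnesyl diphosphate, fell by 1.16 in LIF_NOG (adjusted p = 0.0332, lost in 11) and by 1.26 in BMP4 (adjusted p = 0.0108, lost in 2 with the sign kept). With the set block the BMP4 value of Fdps was 0.02 ± 0.49, so the call was lost there as well. Of the 4 that rose in BMP4 over LIF_NOG, the largest were Sc5d (1.20 ± 0.28), Tm7sf2 (1.17 ± 0.24) and Cyp51 (1.02 ± 0.33, lost in 7 of 24 alternatives). Sc5d also rose in BMP4 over Neurosphere (0.85 ± 0.30, lost in 9). Tm7sf2 fell by 1.10 in LIF_NOG over Neurosphere (lost in 1).

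Extracellular chaperone and amyloid handling genes, the list that holds Clu, were tested for 19 of the 21 on the array. In BMP4 against Neurosphere 13 rose and 0 fell (median 0.68), of which 7 passed with a row-order set block, resting on LIF_NOG 4, and 8 within 1 set, against Neurosphere 1 alone. In LIF_NOG against Neurosphere 7 rose and 0 fell (0.35), and in BMP4 against LIF_NOG 7 rose and 1 fell (0.48), with 3 higher with the set block and 2 within 1 set. Serpina3n, a serine protease inhibitor of reactive astrocytes, was detected on no Neurosphere array of 2 to 4 and rose at least 135-fold in BMP4 (adjusted p = 4.80e-08) and at least 77.6-fold in LIF_NOG (adjusted p = 1.97e-06). The protease inhibitor gene A2m rose at least 6.22-fold in BMP4 (adjusted p = 0.000154, and 0.0614 within 1 set, against Neurosphere 1 alone) and at least 10.7-fold in LIF_NOG (adjusted p = 0.000179) against Neurosphere, where it was undetected. App, the amyloid precursor, rose 5.08-fold in BMP4 (adjusted p = 2.89e-07), with 0.41 ± 0.16 in LIF_NOG (adjusted p = 0.0946).

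The genes with the profile most like that of Apoe or of Clu were found by the root mean square difference of log2 levels over the 11 arrays, each gene centred on its own mean, among 11033 other genes. For Apoe the nearest was Socs3 (0.48), an inhibitor of JAK-STAT signalling, then Clu (0.57), Ccn1 (0.59), Kcna6 (0.62) and Fos (0.69). For Clu they were Apoe (0.57), Ccn1 (0.57), Glycam1 (0.62), Fos (0.64) and Socs3 (0.74). Apoe and Clu were thus second and first on each other's list. All 11 arrays enter both profiles, and the measure is a description with no test.

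Socs3 was at 11.40, 12.07, 11.89 and 12.41 in BMP4, at 10.20, 9.73, 10.55 and 11.51 in LIF_NOG, and at 5.86, 6.31 and 6.63 on Neurosphere arrays 2 to 4. It had its lowest treated level on LIF_NOG 2 and its highest LIF_NOG level on LIF_NOG 4, as Apoe did. Fos, Gfap, Apoc1, Abca7, Abcg1 and Lrp4 did so too, though not every named gene did, so this is not particular to Socs3 and Apoe. The matrix-associated secreted protein gene Ccn1 was at 10.33 ± 0.243 in BMP4 and 8.83 ± 0.516 in LIF_NOG (SD, n = 4 each), and was detected on no Neurosphere array of 2 to 4. Kcna6, a potassium channel subunit, was at 12.24 ± 0.18 in BMP4, 10.77 ± 0.847 in LIF_NOG and 7.01 ± 0.294 in Neurosphere. Fos, an AP-1 transcription factor, was at 13.80 ± 0.124 in BMP4 and 13.99 ± 0.509 in LIF_NOG, against 8.51 ± 0.221 in Neurosphere. Glycam1, which encodes a mucin-like glycoprotein, was at 9.82 ± 0.862 in BMP4, 9.12 ± 0.99 in LIF_NOG and 4.88 ± 0.272 in Neurosphere, where 2 of 3 arrays detected it.

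**Figure D5:**
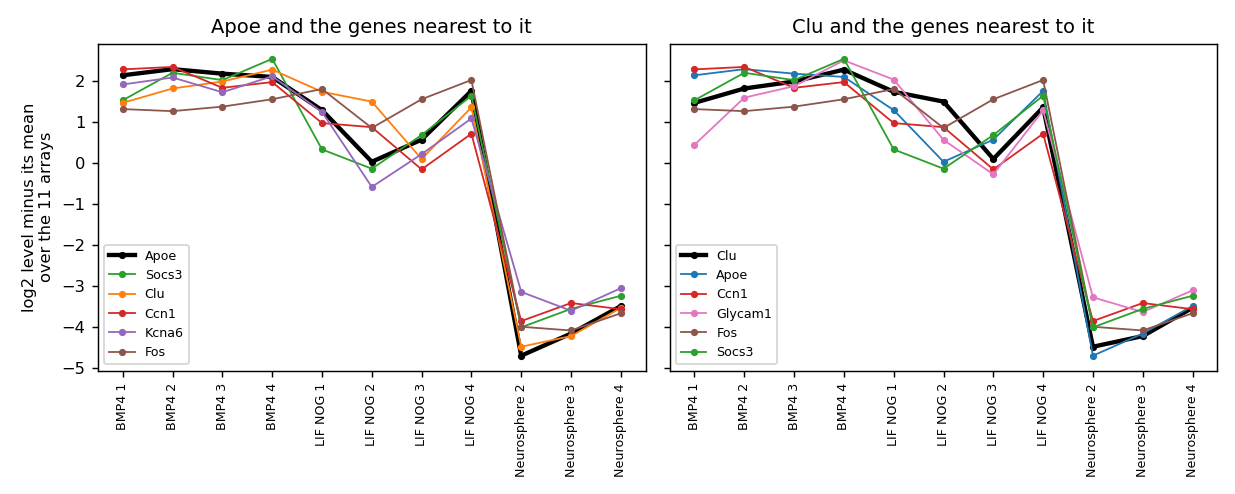
Log2 level minus the gene's own mean over 11 arrays, for Apoe (left) and Clu (right) as thick black lines and their 5 nearest genes as thin lines, with lines joining arrays only to guide the eye. All genes drawn are high on the 8 treated arrays and low on the 3 Neurosphere arrays. Among treated arrays Apoe, Socs3, Kcna6 and Fos are lowest on LIF_NOG 2, and Clu, Ccn1 and Glycam1 on LIF_NOG 3.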

How the data were processed

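Illumina mouse bead arrays measured 12 RNA samples, grouped by their titles. The deposited raw table holds, per the file headers, an intensity for each probe and array that was not normalized, with a detection p-value from the authors beside it. Another deposited table gives intensity as processed by the authors. BeadStudio 3 and lumi 2.15.1 appear, with no role stated, per the submitters' processing notes. No column was left unused (0 columns).

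Of 46643 raw rows, those of 11 probe IDs listed more than once were dropped, which left 46621 probes. Of these 29967 carried 1 gene symbol in the platform annotation, 10 several and 16644 none, and 0 symbols changed through Entrez IDs. Rows of the 2 tables were matched by rank through the 5 arrays that stand in both row orders (46613 matched, limit 0.002 on the rank distance). After matching, Neurosphere 1 had rank correlations of 0.916 to 0.928 with its group.

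The 11 arrays other than Neurosphere 1 were processed in R 4.3.3 with limma 3.58.1, by its neqc function (normexp background correction, with negative controls taken from detection p-values, an offset of 16, quantile normalization and log2). Probes with a detection p-value under 0.05 on at least 3 arrays were kept, 20965 in all, and 11034 genes were each read from their brightest probe. Group means were fitted with lmFit and contrasts by contrasts.fit, then eBayes (residual degrees of freedom 8, prior 4.54). All p-values are two-sided and adjusted by Benjamini-Hochberg over all 20965 probes, and calls are at an adjusted p under 0.05. The number of arrays limits the precision. The code was tested on simulated data. Python 3.11.15 made the tables (pandas 2.3.3, numpy 2.4.6, scipy 1.17.1) and figures (matplotlib 3.10.9).

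The members, gene lists, markers and rules were chosen with earlier results of these data known. Besides the members, the text names the 5 genes most like each tested member, up to 3 called genes with the largest change per list and comparison, and, whatever their result, Nr1h2, Nr1h3, Srebf1, Srebf2, Abcg1, Lrp1, Lcat, Npc1, Mylip, Gfap and Aqp4; a further gene of this rule is not reported here. List members named only as part of a count, and Mttp among them, fall outside it. Cav1, Ide and Psen2, picked by the rule, rose by 1.51, 0.90 and 0.71 on the log2 scale in BMP4 over LIF_NOG. Ncoa1, also picked, rose by 0.82 in LIF_NOG over Neurosphere, a call lost in 9 of 24 alternatives. Alternatives were 12 arrays, other normalizations, offsets and filters, gene level, the authors' values, blocks, subsets and leaving out each array.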

Additional observations from a re-analysis of the deposited data

Results flagged for a closer look

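Among 96 sets of 4 arrays, each a named gene in BMP4 or LIF_NOG, 2 held an array set apart by its gap to the nearest other array (over Dixon's 95% critical value as a share of the range), where chance sets apart about 1 in 20. The level of Apoc1 was 6.06 on LIF_NOG 2 and between 7.19 and 7.41 on the rest of that group, a gap of 0.843 of the range. Vldlr was at 9.88 on BMP4 3, against 10.23 to 10.29 on the other BMP4 arrays, also a gap of 0.843. Apoe and Clu had no array set apart in this way.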

How the results depend on the processing

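The rises of Apoe and Clu against Neurosphere passed the test in all 24 alternatives. For Apoe they ran from 5.17 to 6.98 in BMP4 (6.01 to 6.61 on leaving out 1 array) and from 4.60 to 5.35 in LIF_NOG (4.74 to 5.35). For Clu they ran from 4.90 to 6.25 in BMP4 (5.76 to 6.24) and from 4.18 to 5.61 in LIF_NOG (5.04 to 5.61). The lowest value was that of the authors' processed values for Clu in both groups and for Apoe in LIF_NOG. BMP4 over LIF_NOG for Apoe was 0.42 with a row-order set block (adjusted p = 0.584) and 0.42 within 1 set (0.173), both resting on LIF_NOG 4 alone, passed in the other 22 and was 0.97 to 1.55 on leaving out 1 array. For Clu it was 0.36 to 0.90 and passed in none. Abca1 was tested in the fit without a detection filter only, so it has no such range.

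Probes called in LIF_NOG against Neurosphere numbered 2855 with 1 probe a gene, 2872 with the mean of a gene's probes and 2427 within 1 set, against 4682 in the fit reported, and 2669 to 6335 on leaving out 1 array, lowest without Neurosphere 3 and 2797 without Neurosphere 2. In BMP4 against Neurosphere they numbered 5440, 5448 and, with the set block, 4192, against 9413 (8140 to 10101 on leaving out 1 array). In BMP4 against LIF_NOG they numbered 4619, 4578, 4082 with the block and 3918 within 1 set, against 7723 (6660 to 8258). The cause was not tested beyond the smaller number of features or arrays in these fits.

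The labels do not say what a replicate number shares, and the numbers were not taken as pairs because not every same-number pair correlated above 0.1. Deviations of the 10 same-number pairs correlated at -0.052 to 0.218, 7 of them over 0.1, against 2 of 30 pairs of different number, and 8 of 11 arrays correlated best with an array of their own number, a hint of pairing from the data and not from the design. With the replicate block the counts were 9256, 4388 and 7969 in the order BMP4 over Neurosphere, LIF_NOG over Neurosphere and BMP4 over LIF_NOG, and no call of Apoe or Clu changed. Of 3312 other values of named genes, 143 lost a call, 23 gained one and 29 changed sign, all but 1 of those 29 from values that did not pass. In LIF_NOG over Neurosphere these were Osbpl1a (-0.01 with the replicate block, -0.23 to 0.27 on leaving out 1 array, below 0 without LIF_NOG 2 or Neurosphere 4), Rora (0.15 with median scaling, -0.20 to 0.22 on leaving out 1 array) and Smpdl3a (-0.07 to 0.16). In BMP4 over Neurosphere they were Cyp51 (-0.02 with the replicate block, -0.07 to 0.20 on leaving out 1 array), Tm7sf2 (-0.05 with the replicate block, -0.12 to 0.20) and, with the set block, Fdps (0.02, the called one), Srebf2 (0.13) and Stard4 (0.45). In BMP4 over LIF_NOG they were Fdps (0.86 with the set block and within 1 set, -0.41 to 0.19 on leaving out 1 array), Lrp4 (-0.11 with the block and within 1 set), Lss (-0.01 with the mean of probes, -0.19 to 0.42 on leaving out 1 array) and Ncoa1 (-0.08 to 0.35). The cause was not tested. The signal of Abca1 over background limits what its single probe can show.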
